A study of Mus musculus with 12 samples.

Results

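The genes followed here, 7 of 56747 in the count table, are the receptor genes Gpr34, Gpr35, Gpr65, Gpr84, Gpr132 and Gpr183, and Ch25h, an enzyme gene. They were chosen by symbol, as metabolite-sensing or orphan G protein-coupled receptors of macrophages, with Ch25h added because its product is the precursor of the ligand of Gpr183. All 7 lay in the 37542 rows used below, and all 7 passed the filter on low counts, Ch25h only through the group in which it was high. Their RNA was read in bone-marrow-derived macrophages, which are primary cells grown from mouse marrow over 7 days in medium conditioned by L929 fibroblasts. Cells lacking Alpk1 (Alpk1-/-, here KO) and wild-type cells (WT), both labelled C57BL/6N, received 100 µM ADP-heptose (ADP-Hep) or PBS for 4 h. This gave 4 groups of 3 libraries each, namely KO with ADP-Hep, KO with PBS, WT with ADP-Hep and WT with PBS. The labels give neither the age of the mice, nor whether KO and WT mice were littermates, nor which part of Alpk1 was deleted. Nor do they name the animal or culture behind each library, so the spread on which p-values rest may be technical.

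G protein-coupled receptors carry signals from small molecules outside the cell to heterotrimeric G proteins inside it, and through them change cyclic AMP, calcium and cell movement. Several receptors of macrophages respond to products of metabolism: protons, fatty acids, lysophospholipids and oxidised cholesterol. ADP-Hep is a sugar nucleotide of Gram-negative bacteria, which the kinase ALPK1 senses in the cytosol and which leads through the adaptor TIFA to NF-kB.

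Total counts ran from 16110654 to 31333973 per library. Further down the table the KO values were displaced by 1 row against their identifiers, so 19207 rows were left out; among the rows kept, the mean log2 count in KO and in WT cells correlated across genes with r = 0.996. Alpk1 stood at 19.2 to 22.5 CPM (read counts brought to a common library size by TMM scaling) in KO cells given ADP-Hep, 20.3 to 22.3 CPM in KO cells given PBS, 52.3 to 55.3 CPM in WT cells given ADP-Hep and 25.9 to 32.1 CPM in WT cells given PBS. Reads over Alpk1 thus remained in every KO library, and without the position of the deletion these counts are no check of it. All 10 macrophage markers were detected in every group, with summed levels between 25237 and 30275 CPM. Of 11 neutrophil markers none was at 0 over a group, and their sum was 269 to 279 CPM in KO ADP-Hep, 342 to 368 in KO PBS, 300.2 to 319 in WT ADP-Hep and 322 to 356 CPM in the WT PBS group. The 7 B cell markers summed to 15.1 to 15.5 CPM in KO ADP-Hep, 13.8 to 18.4 in KO PBS, 7.77 to 10.8 in WT ADP-Hep and 11.01 to 14.5 CPM in the WT PBS group, with Pax5 at 0 in every group. The 7 T and NK cell markers reached at most 0.312 CPM and the 7 dendritic cell markers at most 2.10 CPM in any library.

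As over all genes, fewer of the 7 genes were called changed with ADP-Hep in KO cells than in WT cells. In KO cells 2 of 7 were higher (Gpr65 and Gpr35) and 0 lower, by the edgeR quasi-likelihood test with a Benjamini-Hochberg adjusted p under 0.05 over the 12261 genes tested. Among all genes tested in KO cells, 13.7% were called higher and 15.3% lower. The count of 0 lower rested on single libraries and on the filter: at an unadjusted p under 0.05 Gpr132 was also lower in KO cells, and its adjusted p passed the threshold in 4 of 24 alternative settings; the DESeq2 Wald test and limma-voom gave 0 lower. The count higher in KO cells also depended on the adjustment: without it, Gpr34, Gpr84 and Gpr183 passed the same threshold as higher. Without it Gpr35 passed as higher in WT cells. With the adjustment, 4 of 7 were higher in WT cells (Gpr84, Ch25h, Gpr132 and Gpr65) and 2 were lower (Gpr34 and Gpr183), with no call for Gpr35. Ch25h, included in these counts, passed the filter on low counts only through the WT ADP-Hep group. The background in WT cells was high, with upward calls for 31.9% and downward calls for 31.6% of all genes tested. The response differed between genotypes for 6 of 7, taken as WT response minus KO response. It was more upward in WT cells for Gpr84, Gpr132 and Ch25h (background 24.6%), more downward for Gpr34, Gpr183 and Gpr35 (background 24.9%), and not called for Gpr65. The median log2 change of the 7 genes was 0.30 in KO cells and 0.92 in WT cells, against 0.0052 in KO and -0.0058 in WT cells over all genes tested. These medians are the values of single genes, Gpr34 in KO and Gpr65 in WT cells. The median difference between the responses, WT minus KO, was -0.086.

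**Figure D1:**
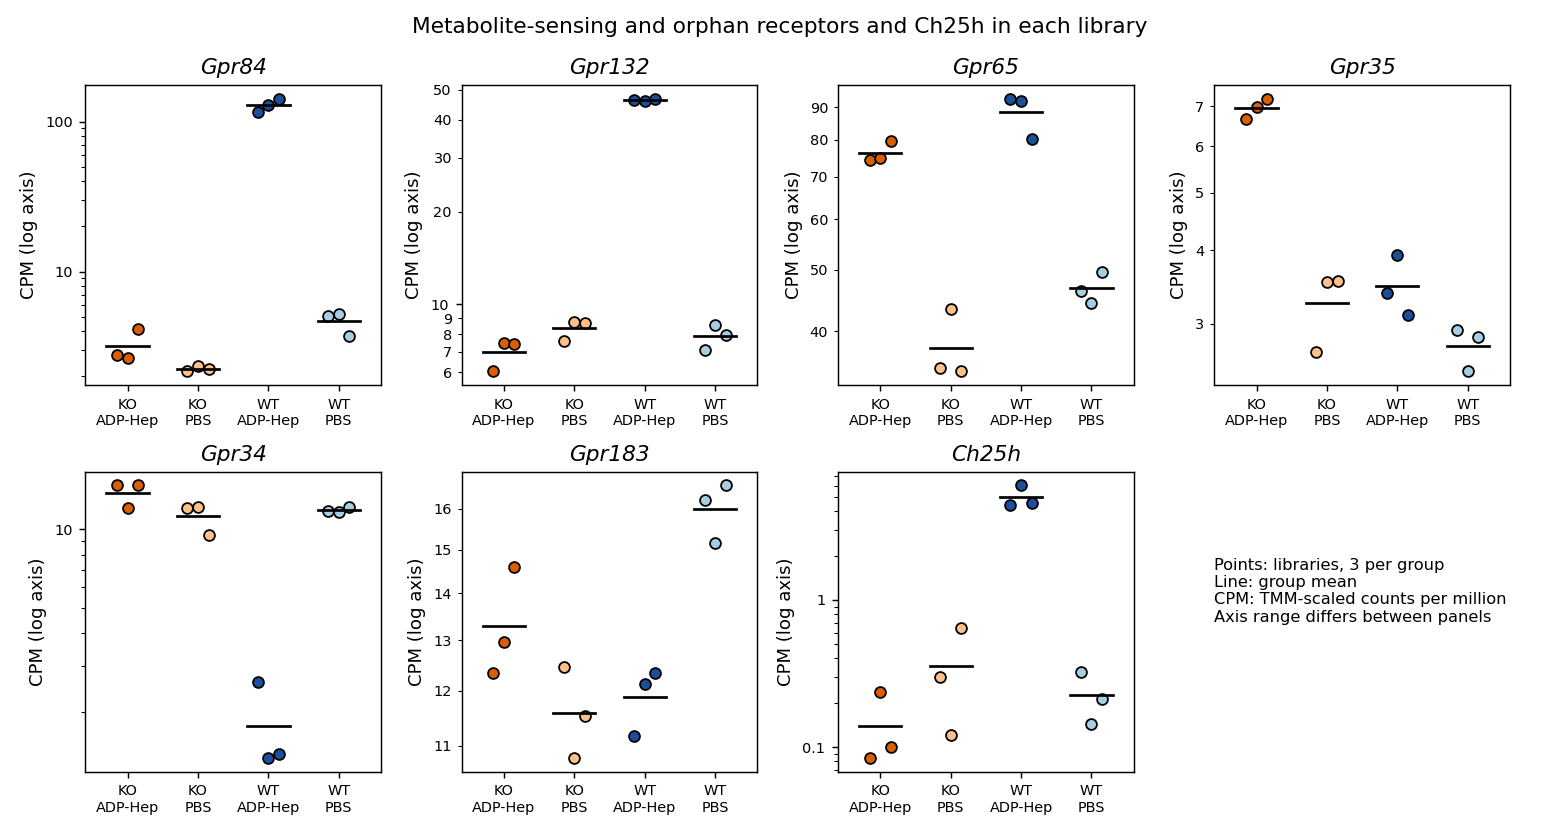
Level of each of the 7 genes in CPM on a log axis, 1 panel per gene, with 1 point per library, 3 libraries per group, and a line at the group mean. Gpr84, Gpr132 and Ch25h stand high in the WT ADP-Hep libraries alone, Gpr34 stands low there alone, Gpr65 is higher with ADP-Hep in both genotypes, and Gpr35 is highest in the KO ADP-Hep libraries, at 6.68 to 7.22 CPM.

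The stretch before the transcription start is shown for 4 of the genes that rose: 3 that rose in WT cells with no rise called in KO cells (Gpr84, Gpr132, Ch25h) and Gpr65, which rose in both. RefSeq promoters (GRCm38.p6, 5′ to 3′ on the gene's strand) were found for 6 of 7 genes, all but Gpr34. Capitals mark a match to a motif; bases inside GENCODE exons are left off, so that for Gpr84 the stretch ends 175 bases before the RefSeq start.
Gpr84, chr15:103310613-103310688, minus strand: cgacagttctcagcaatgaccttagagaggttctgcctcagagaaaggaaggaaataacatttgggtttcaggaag
Gpr132, chr12:112860953-112861166, minus strand: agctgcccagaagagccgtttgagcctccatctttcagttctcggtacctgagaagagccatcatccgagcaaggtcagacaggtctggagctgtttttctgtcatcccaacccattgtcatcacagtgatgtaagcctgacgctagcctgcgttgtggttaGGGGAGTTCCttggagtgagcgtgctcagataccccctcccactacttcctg
Ch25h, chr19:34475165-34475398, minus strand: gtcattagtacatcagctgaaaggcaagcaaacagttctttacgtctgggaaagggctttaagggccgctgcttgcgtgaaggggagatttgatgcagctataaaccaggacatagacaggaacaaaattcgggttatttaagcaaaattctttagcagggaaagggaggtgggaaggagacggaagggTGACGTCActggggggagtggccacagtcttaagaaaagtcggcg
Gpr65, chr12:98268385-98268634, plus strand: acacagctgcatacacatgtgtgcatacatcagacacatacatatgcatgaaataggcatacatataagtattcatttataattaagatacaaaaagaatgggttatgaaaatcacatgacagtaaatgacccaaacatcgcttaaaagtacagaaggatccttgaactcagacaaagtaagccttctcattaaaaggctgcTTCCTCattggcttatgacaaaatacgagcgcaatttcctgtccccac

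Both strands of the 250 bases before each start were searched for 5 motifs. Gpr132 held a match to the NF-kB kappaB consensus, GGGGAGTTCC, at 88 to 79 bases before its RefSeq start. Of 32851 mouse promoters of this length, 7.25% held one. The Gpr132 window, 112860917 to 112861166, lies inside the GENCODE span of the gene, which begins at 112868228 on the minus strand. Ch25h held the cyclic AMP response element TGACGTCA at 61 to 54 bases before the start, which 1.55% of promoters held. Gpr65 held the PU.1 core GAGGAA, on the opposite strand, at 48 to 43 bases before the start, a motif of 23.3% of promoters. No window of these 4 genes held the AP-1 motif TGANTCA (6.75% of promoters) or the interferon-stimulated response element (2.98%), and the Gpr84 window held none of the 5. Gpr35, which rose in KO cells, has 2 RefSeq starts: the window of the first held none of the 5 motifs, and that of the second held the AP-1 match TGAGTCA at 184 to 178 bases and the PU.1 core at 168 to 163 and at 12 to 7 bases before the start. Both Gpr35 windows lie inside the GENCODE span of that gene, 92950865 to 92986391. The Gpr183 window held none of the 5. A match is a string of letters, and binding was not measured.

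Gpr84 encodes a receptor for medium-chain fatty acids that couples to inhibitory G proteins (ENSMUSG00000063234; chromosome 15, 103308235 to 103310612, minus strand, mm10). It had 2.77, 2.67 and 4.13 CPM in KO ADP-Hep libraries and 2.16, 2.34 and 2.26 CPM in KO PBS libraries. In WT cells it had 116, 130 and 142 CPM with ADP-Hep, against 5.08, 5.20 and 3.74 CPM with PBS. The WT ADP-Hep libraries stood far above all others, and the KO PBS libraries were the lowest.

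In KO cells the 2 treatments did not overlap for Gpr84, as for 42.1% of all genes, but no change was called (log2 change 0.52 ± 0.23 SE, adjusted p = 0.106). With no filter beyond 1 count it passed (0.53, adjusted p = 0.0236). The rise in WT cells was 28.3-fold (log2 change 4.82 ± 0.11, adjusted p = 8.3e-19), and Gpr84 ranked 40 of the genes tested by the size of its change. The WT response exceeded the KO response by 4.31 ± 0.31 on the log2 scale (edgeR adjusted p = 3.5e-10). KO libraries also lay below WT libraries before any stimulus: under PBS Gpr84 averaged 2.25 ± 0.0876 CPM in KO cells and 4.67 ± 0.811 CPM in WT cells (SD, n = 3 each; log2 change -1.005 ± 0.22, edgeR adjusted p = 0.00455). An antisense gene, Gm49482, shares 681 exonic bases with Gpr84. The strand setting of the counting is not given in the sources used here, so reads of the 2 genes could not be told apart with certainty.

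Gpr35 encodes a receptor still treated as an orphan, with tryptophan metabolites and lysophosphatidic acids among its proposed ligands (ENSMUSG00000026271; chromosome 1, 92950865 to 92986391, plus strand). It had 6.68, 6.99 and 7.22 CPM in KO ADP-Hep libraries and 2.68, 3.54 and 3.55 CPM in KO PBS libraries. WT ADP-Hep libraries held 3.38, 3.92 and 3.11 CPM, against 2.93, 2.49 and 2.85 CPM in WT PBS libraries. The gene was highest in the KO ADP-Hep libraries, which overlapped no other group.

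The rise of Gpr35 in KO cells was 2.13-fold (log2 change 1.09 ± 0.14, edgeR adjusted p = 2.2e-06), a size that put it at percentile 99.1 of all KO changes. In WT cells the libraries also did not overlap, as for 65.9% of all genes, but the change of 0.34 ± 0.16 was not called (edgeR adjusted p = 0.0589). It passed without WT ADP-Hep replicate 3 (0.39, adjusted p = 0.0450). The difference between the responses, WT minus KO, was -0.74 ± 0.22 (edgeR adjusted p = 0.00589), and was not called against a change of 1.5-fold (adjusted p = 0.437). Under PBS no genotype difference was called for Gpr35 (0.24 ± 0.17, adjusted p = 0.416), and under ADP-Hep KO cells were 1.97-fold higher (0.98 ± 0.13, edgeR adjusted p = 5.6e-07). Neutrophil marker levels were lower in the KO ADP-Hep than in the KO PBS libraries, as given above; their part in the Gpr35 result was not tested.

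Gpr65 and Gpr132 belong to the family of proton-sensing receptors. Gpr65 raises cyclic AMP when the surroundings turn acidic (ENSMUSG00000021886; chromosome 12, 98268635 to 98276644, plus strand). It had 74.3, 74.9 and 79.8 CPM in KO ADP-Hep libraries and 35.0, 43.4 and 34.6 CPM in KO PBS libraries. WT ADP-Hep libraries held 92.9, 92.2 and 80.4 CPM, against 46.2, 44.2 and 49.6 CPM in WT PBS libraries. Both ADP-Hep groups stood above both PBS groups without overlap.

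The rise of Gpr65 was 2.01-fold in KO cells (log2 change 1.01 ± 0.08, adjusted p = 1.1e-09) and 1.90-fold in WT cells (0.92 ± 0.07, adjusted p = 1.5e-10). The rise in KO cells stood at percentile 98.9 of all KO changes. The difference between the responses was -0.09 ± 0.11 (edgeR adjusted p = 0.524), with an approximate 95% interval from -0.33 to 0.16. Gpr65 is the only gene of the 7 that rose in both genotypes by this test. Under PBS KO cells were lower (-0.31 ± 0.08, edgeR adjusted p = 0.0140), but this call was lost on leaving out KO PBS replicate 1 (adjusted p = 0.0944), KO PBS replicate 3 (0.0833) or WT PBS replicate 3 (0.0749). Under ADP-Hep KO cells were lower by a smaller margin (-0.22 ± 0.07, adjusted p = 0.00779). Scaling by library totals alone gave -0.07 (adjusted p = 0.434) while moving the median of all genes to 0.17. An antisense gene, Gm47566, shares 511 exonic bases with Gpr65, with the same uncertainty as for Gpr84.

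Gpr132 has been reported to respond to oxidised fatty acids and, in mouse macrophages, to lactate (ENSMUSG00000021298; chromosome 12, 112850873 to 112868228, minus strand). It had 6.05, 7.46 and 7.42 CPM in KO ADP-Hep libraries and 7.61, 8.75 and 8.70 CPM in KO PBS libraries. WT ADP-Hep libraries held 46.2, 45.9 and 46.8 CPM, against 7.10, 8.55 and 7.94 CPM in WT PBS libraries. The WT ADP-Hep libraries were nearly equal to each other and stood alone, while WT PBS and KO PBS libraries overlapped.

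In KO cells Gpr132 stood slightly lower with ADP-Hep, without overlap of the libraries, and was not called (-0.28 ± 0.11, adjusted p = 0.0567). It crossed the threshold when KO PBS replicate 1, KO ADP-Hep replicate 3 or the KO ADP-Hep library with no number was left out (adjusted p = 0.0443, 0.0463 and 0.0493), and with a filter of at least 1 CPM in 3 libraries (0.0468). It rose 5.89-fold in WT cells (log2 change 2.56 ± 0.08, adjusted p = 4.6e-19). The WT response exceeded the KO response by 2.84 ± 0.14 (edgeR adjusted p = 9.5e-15). Under PBS the genotypes showed no called difference (0.09 ± 0.11, adjusted p = 0.661; approximate 95% interval -0.16 to 0.34). Under ADP-Hep KO cells were lower (-2.75 ± 0.08, adjusted p = 1.1e-19). Gpr4, another proton sensor, had too few counts to be tested.

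**Figure D2:**
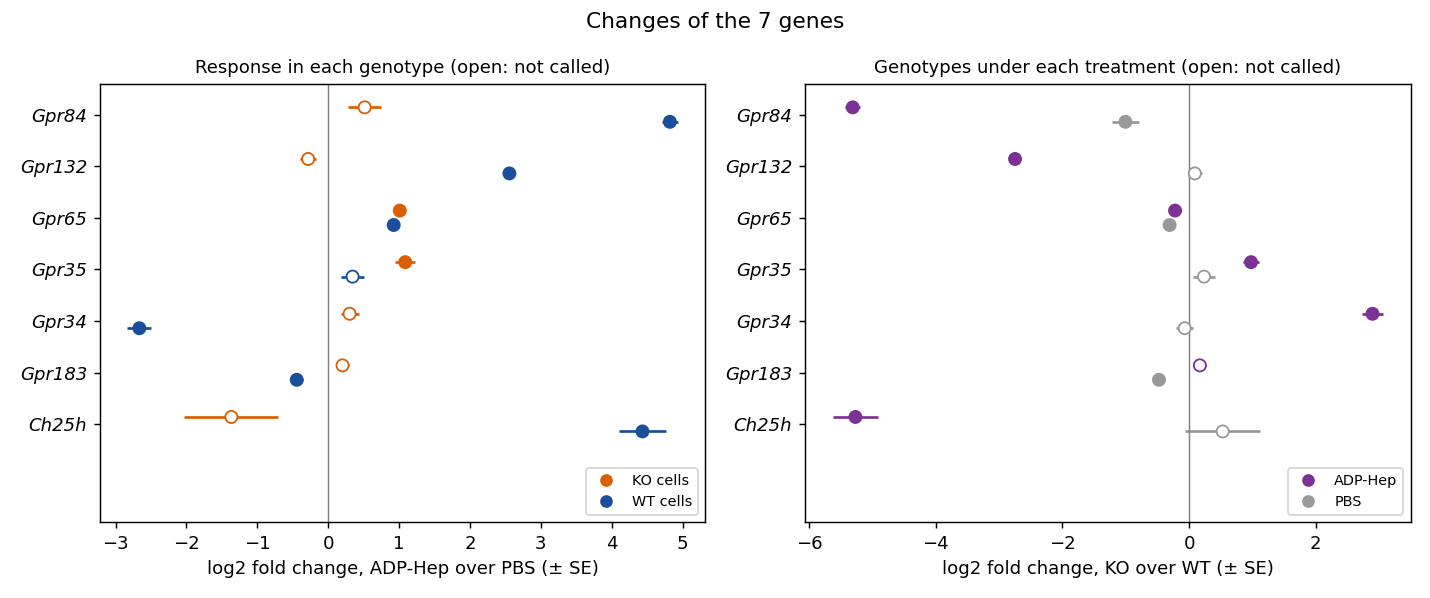
Log2 fold changes ± SE of the 7 genes from the fit to all 12 libraries: left, ADP-Hep over PBS in KO and WT cells; right, KO over WT under ADP-Hep and under PBS. Filled points were called at adjusted p under 0.05. The KO changes called, of Gpr65 and Gpr35, are 1.01 and 1.09, whereas in WT cells Gpr84, Ch25h and Gpr132 lie above 2.5 and Gpr34 lies at -2.66.

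Gpr34 encodes a receptor for lysophosphatidylserine, a phospholipid fragment, and is best known from microglia (ENSMUSG00000040229; chromosome X, 13632089 to 13640858, plus strand). It had 14.7, 12.02 and 14.7 CPM in KO ADP-Hep libraries and 12.1, 12.2 and 9.51 CPM in KO PBS libraries. WT ADP-Hep libraries held 2.61, 1.34 and 1.38 CPM, against 11.7, 11.7 and 12.1 CPM in WT PBS libraries. The WT ADP-Hep libraries lay below every other library, and the other 3 groups overlapped. In bulk RNA, fewer cells that express a gene and less RNA per cell cannot be told apart.

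In KO cells the change of Gpr34 was 0.30 ± 0.13 (adjusted p = 0.0764), which passed the threshold in 5 of 24 alternative settings, at adjusted p = 0.0216 with no filter beyond 1 count. The fall of Gpr34 in WT cells was 6.34-fold (log2 change -2.66 ± 0.17, adjusted p = 2.7e-12), and only 0.343% of all genes changed at or below it. WT ADP-Hep replicate 1, at 2.61 CPM, was the highest of its group; without it the change was -3.13, and over all alternatives it ran from -3.13 to -2.43. The responses differed by -2.97 ± 0.22 (WT minus KO, edgeR adjusted p = 6.9e-11). Under PBS no genotype difference was called (-0.07 ± 0.13, adjusted p = 0.799), and under ADP-Hep KO cells held 7.45-fold more (2.90 ± 0.17, adjusted p = 3.1e-13). Gpr34 lies in the span of Cask on the other strand but shares no exonic base with it. Of the other lysophosphatidylserine receptors and relatives listed, P2ry10b was the only one tested: it was not called in KO cells (0.02 ± 0.10, adjusted p = 0.911) and rose in WT cells (0.44 ± 0.10, adjusted p = 0.000417). P2ry10, Gpr174 and the neighbour Gpr82 had too few counts to be tested.

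Gpr183 and Ch25h are the 2 ends of an oxysterol circuit. Ch25h hydroxylates cholesterol, the enzyme Cyp7b1 hydroxylates the product again, and Gpr183, also called EBI2, draws immune cells towards the dihydroxylated sterol. Ch25h (ENSMUSG00000050370; chromosome 19, 34473778 to 34475164, minus strand) had 2, 3 and 2 counts in KO ADP-Hep libraries and 4, 2 and 8 counts in KO PBS libraries. It had 109, 135 and 53 counts in WT ADP-Hep libraries, against 5, 2 and 5 counts in WT PBS libraries. These WT counts equal 4.44, 6.02 and 4.58 CPM with ADP-Hep and 0.326, 0.142 and 0.214 CPM with PBS. Ch25h was near the limit of detection in 3 groups and clearly present in the WT ADP-Hep group, and only that group brought it past the filter on low counts.

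The KO values of Ch25h rested on 7 counts with ADP-Hep against 14 with PBS, and no change was called (-1.37 ± 0.66, adjusted p = 0.130); it was -1.85 without KO PBS replicate 2, which passed (adjusted p = 0.0392), and -0.66 without KO PBS replicate 3 (adjusted p = 0.584). Ch25h rose 21.6-fold in WT cells (log2 change 4.43 ± 0.33, edgeR adjusted p = 9.9e-12), while the ratio of summed counts was 22.4 with a counting interval of 12.6 to 43.8. The WT response exceeded the KO response by 5.80 ± 0.81 (edgeR adjusted p = 1.7e-06), and by 5.09 without KO PBS replicate 3 (adjusted p = 0.000229). Under PBS KO and WT cells gave no called difference (0.53 ± 0.59, adjusted p = 0.635), and the sign turned without KO PBS replicate 3 (-0.18). Under ADP-Hep KO cells were lower (-5.27 ± 0.36, adjusted p = 2.2e-12). A lncRNA on the opposite strand, Gm26902, shares 159 exonic bases with Ch25h; it had 1, 0 and 2 counts in KO ADP-Hep libraries and 12, 1 and 3 in WT ADP-Hep libraries.

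Gpr183 (ENSMUSG00000051212; chromosome 14, 121952551 to 121965195, minus strand) had 12.35, 12.96 and 14.6 CPM in KO ADP-Hep libraries and 12.45, 10.8 and 11.5 CPM in KO PBS libraries. WT ADP-Hep libraries held 11.2, 12.1 and 12.35 CPM, against 16.2, 15.2 and 16.6 CPM in WT PBS libraries. The WT PBS libraries stood above all others. In KO cells the change of Gpr183 was 0.20 ± 0.09 (adjusted p = 0.111), called only when library totals were the scaling (0.25, adjusted p = 0.0480). In WT cells Gpr183 fell 1.36-fold (log2 change -0.44 ± 0.09, adjusted p = 0.000103), and the fall was not called against a change of 1.5-fold.

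The responses of Gpr183 differed by -0.65 ± 0.13 (WT minus KO, edgeR adjusted p = 0.000181), a difference not called against a change of 1.5-fold. This includes a difference at rest, since under PBS KO cells were lower (-0.47 ± 0.09, adjusted p = 0.000952). Under ADP-Hep no difference was called (0.17 ± 0.09, adjusted p = 0.0978), although library totals gave 0.33 (adjusted p = 0.00266) with the median of all genes at 0.17. B cells also express Gpr183, and summed B cell markers, too, were lower with ADP-Hep in WT cells. The B cell sums were 15.1 to 15.5 CPM with ADP-Hep and 13.8 to 18.4 CPM with PBS in KO cells, and 7.77 to 10.8 CPM with ADP-Hep and 11.01 to 14.5 CPM with PBS in WT cells, where the libraries did not overlap. The only B cell marker abundant enough to be tested, Cd79b, was not called in KO cells (0.03 ± 0.11, edgeR adjusted p = 0.867) and was lower in WT cells (-0.40 ± 0.12, adjusted p = 0.00405), with a difference of -0.43 ± 0.16 (WT minus KO, adjusted p = 0.0274). Under PBS, where Gpr183 was lower in KO cells, the B cell sums were not lower there and Cd79b was not called (log2 change 0.24, KO against WT). Under ADP-Hep, where no Gpr183 difference was called, Cd79b was called higher in KO cells (0.68). The part of B cells in the Gpr183 result was not tested. Of 6 other oxysterol enzymes listed, 2 were abundant enough to be tested. Both were lower with ADP-Hep than with PBS in WT cells, where 31.6% of all genes tested were called lower. Cyp27a1, a mitochondrial sterol hydroxylase, had 18.3 ± 2.85 CPM in KO ADP-Hep, 20.8 ± 1.47 in KO PBS, 4.25 ± 0.352 in WT ADP-Hep and 17.3 ± 1.35 CPM in WT PBS libraries (SD, n = 3 each). It was not called in KO cells (-0.21 ± 0.10, adjusted p = 0.103) and fell in WT cells (-2.01 ± 0.12, edgeR adjusted p = 1.3e-13). Cyp39a1, an oxysterol hydroxylase, was not called in KO cells (0.05 ± 0.25, adjusted p = 0.912) and fell in WT cells (-0.71 ± 0.25, edgeR adjusted p = 0.0173). Cyp7b1 had 0 counts over the KO ADP-Hep libraries, 0 over the KO PBS, 4 over the WT ADP-Hep and 0 over the WT PBS libraries, and Hsd3b7, the next enzyme, was listed at 0 in all 12.

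Set per length, the order of the 7 genes was the same with and without ADP-Hep in KO cells and differed in WT cells. RPKM here divides CPM by the exon length of the GENCODE annotation. Gpr65 was highest in 3 groups, at 36.9 ± 1.45 RPKM in KO ADP-Hep, 18.2 ± 2.41 in KO PBS and 22.6 ± 1.32 RPKM in WT PBS libraries (SD, n = 3 each). In the WT ADP-Hep group Gpr84 was highest at 74.9 ± 7.73 RPKM, followed by Gpr65 at 42.8 ± 3.40 and Gpr132 at 17.1 ± 0.166 RPKM, with no overlap between neighbours. Gpr183 at 4.12 ± 0.218 and Ch25h at 3.61 ± 0.630 RPKM overlapped there, as did Gpr34 at 0.850 ± 0.345 and Gpr35 at 0.717 ± 0.0857 RPKM. In WT PBS libraries Gpr34 at 5.67 ± 0.124 and Gpr183 at 5.54 ± 0.258 RPKM overlapped, and so did Gpr132 at 2.90 ± 0.268 and Gpr84 at 2.71 ± 0.470 RPKM. Both KO groups had the order of means Gpr65, Gpr34, Gpr183, Gpr132, Gpr84, Gpr35 and Ch25h, from high to low, in which Gpr132 and Gpr84 overlapped with ADP-Hep.

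**Figure D3:**
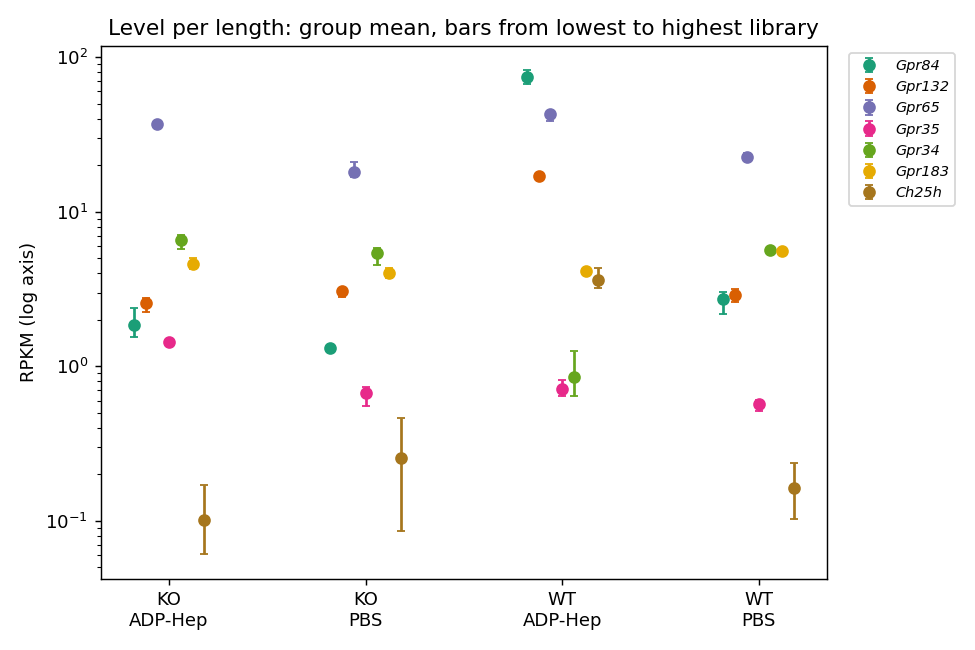
Level per length in RPKM on a log axis: points are means of 3 libraries and bars run from the lowest to the highest library. Gpr84 is the highest of the 7 in WT ADP-Hep libraries, at 67.0 to 82.5 RPKM. In the other groups its mean lies below those of Gpr65, Gpr34, Gpr183 and Gpr132. Its range overlaps that of Gpr132 in the WT PBS and KO ADP-Hep groups. Ch25h is lowest outside the WT ADP-Hep group.

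Between the genotypes under PBS, 3 of the 7 genes were lower in KO cells (Gpr84, Gpr183 and Gpr65) and 0 higher, where 5.82% of all genes were lower and 5.57% higher. At an unadjusted p under 0.05 there was still no gene of the 7 higher, and the DESeq2 Wald test and limma-voom gave 0 as well. Against a change of 1.5-fold none of the 3 was called. Under ADP-Hep 4 were lower in KO cells (Gpr84, Ch25h, Gpr132 and Gpr65; background 32%) and 2 higher (Gpr34 and Gpr35; background 32.8%). These comparisons share libraries with the responses above, so they are not separate evidence.

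Among related receptors, calls were made in both directions, as over all genes, of which 13.7% were higher and 15.3% lower in KO cells and 31.9% higher and 31.6% lower in WT cells. Of 75 genes with a symbol of the form Gpr and a number, 27 were tested; without the 6 followed here, 1 of 21 was called higher and 6 lower in KO cells, and 7 were called higher and 11 lower in WT cells, with a median log2 change of 0.01 in KO and -0.14 in WT cells. Among the other metabolite and lipid receptors listed, 4 of 13 tested were lower in KO cells, and 6 were higher and 7 lower in WT cells. The 6 include Gpr55 and Lpar1, which, like Ch25h, passed the filter on low counts only through the WT ADP-Hep group. Gpr55 had 14 counts over KO ADP-Hep, 7 over KO PBS, 202 over WT ADP-Hep and 5 over WT PBS libraries. For Lpar1 these counts were 28, 15, 476 and 26. Hcar2, the receptor for niacin and ketone bodies, averaged 0.806 ± 0.0546 CPM in KO ADP-Hep, 0.802 ± 0.348 in KO PBS, 22.2 ± 1.53 in WT ADP-Hep and 1.39 ± 0.248 CPM in WT PBS libraries, and rose in WT cells (4.04 ± 0.15, edgeR adjusted p = 3.6e-18). Gpr18, a receptor with disputed lipid ligands, was not called in KO cells (-0.02 ± 0.25) and rose in WT cells (3.40 ± 0.18). The lysophosphatidic acid receptor Lpar5 fell in KO cells (-0.40 ± 0.07) and in WT cells (-2.10 ± 0.09), and the cannabinoid receptor Cnr2 was not called in KO cells (-0.11 ± 0.06) and fell in WT cells (-1.84 ± 0.07). All 4 of these responses differed between genotypes (edgeR adjusted p from 3.9e-14 for Cnr2 to 4.0e-09 for Hcar2).

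Among orphan and adhesion receptors listed, 2 of 19 tested were higher and 6 lower in KO cells, and 6 were higher and 10 lower in WT cells. The orphan Gpr85 had 5.63 ± 0.622 CPM in KO ADP-Hep, 4.62 ± 0.546 in KO PBS, 42.1 ± 1.18 in WT ADP-Hep and 5.19 ± 0.307 CPM in WT PBS libraries and rose in WT cells (3.01 ± 0.09, edgeR adjusted p = 6.6e-20). Gpr155, a lysosomal cholesterol sensor, rose in KO cells (0.18 ± 0.06, adjusted p = 0.0419) and fell in WT cells (-2.03 ± 0.09). The orphan Gpr146 fell in both, with changes of -0.51 ± 0.05 in KO cells and -1.97 ± 0.06 in WT cells, and the latrophilin Adgrl2 fell in KO cells (-0.26 ± 0.05) and rose in WT cells (1.11 ± 0.05). Of 27 tested G proteins, arrestins, receptor kinases and RGS genes, 2 rose and 6 fell in KO cells, and 10 rose and 13 fell in WT cells. Rgs2, an inhibitor of G protein signalling, had 156 ± 8.59 CPM in KO ADP-Hep, 146 ± 2.91 in KO PBS, 25.6 ± 3.33 in WT ADP-Hep and 127 ± 2.36 CPM in WT PBS libraries, and fell in WT cells (-2.28 ± 0.07, edgeR adjusted p = 3.4e-20). The G protein subunits Gng2 (-1.04 ± 0.05) and Gna12 (-0.77 ± 0.05) and the regulator Rgs10 (-0.83 ± 0.05) also fell there. The median change over the metabolite and lipid receptors was -0.11 in KO and -0.24 in WT cells, over the orphan and adhesion receptors 0.06 and -0.14 in KO and WT cells, and over the G protein list 0.01 and -0.03 in KO and WT cells.

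**Figure D4:**
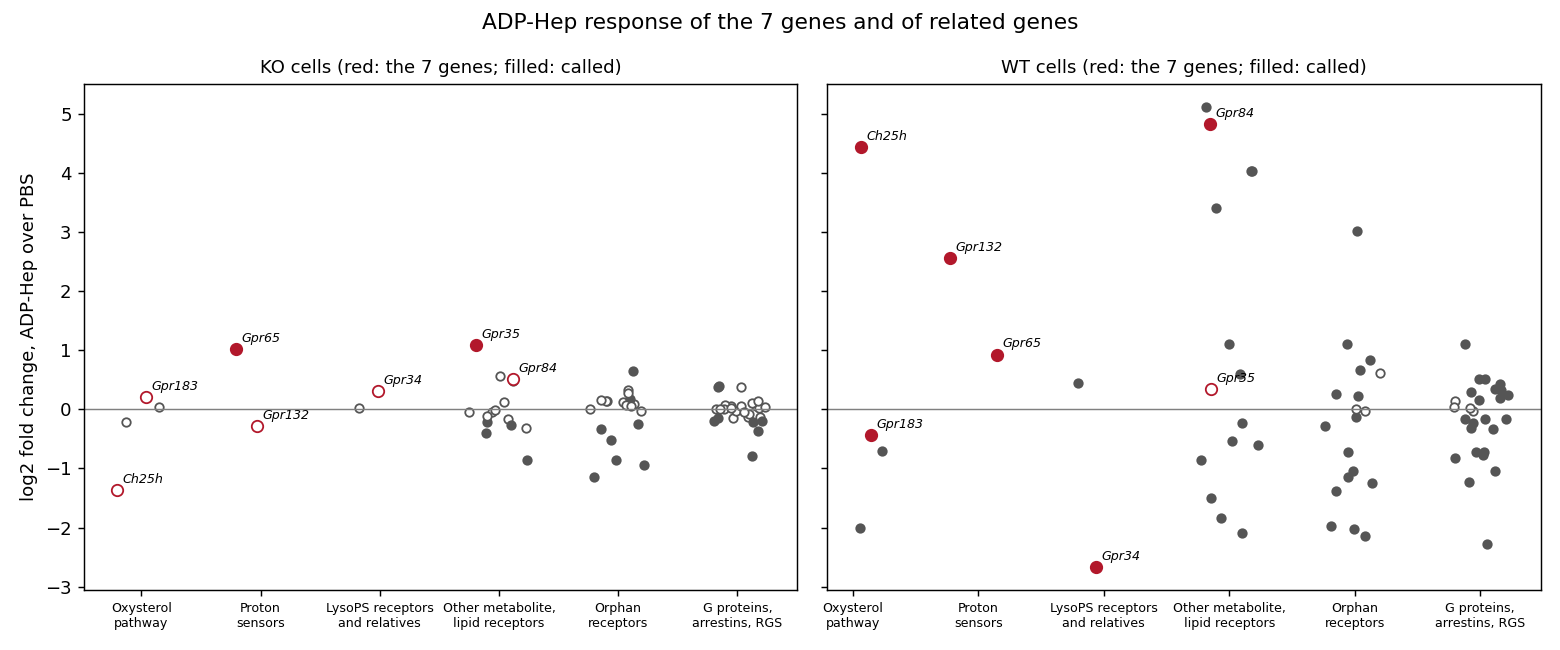
Log2 fold change with ADP-Hep of tested genes in the 6 lists of related genes, in KO cells (left) and WT cells (right), with the 7 genes followed here in red and named, the proton sensors limited to Gpr65 and Gpr132, and filled points called at adjusted p under 0.05. KO changes stay between -1.5 and 1.5, and WT changes in the list of other metabolite and lipid receptors spread from below -2 to above 5. The value above 5 is that of Gpr55, which had 5 counts over the WT PBS and 202 over the WT ADP-Hep libraries.

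The genes most like each of the 7 across the 12 libraries were found by Pearson correlation of log2 CPM among the 9474 genes with a mean of at least 5 CPM. They are descriptions, since the 12 points fall into 4 groups and share a design. Gpr84 was most like the matrix metalloprotease gene Mmp14 (r = 0.998), the NF-kB subunit gene Nfkb2 (0.997) and Pid1 (0.997). Gpr132 was most like Cybb (0.995), Traf1 (0.994) and Junb (0.994), which encode an NADPH oxidase subunit, a signalling adaptor and an AP-1 subunit. Ch25h was most like Dcp1a (0.989), Tlk2 (0.984) and Ube2j2 (0.984). Ch25h was near the limit of detection outside the WT ADP-Hep group, so its correlations mostly set that group apart from the others. In WT cells Dcp1a, Tlk2 and Ube2j2 rose 1.34-, 1.32- and 1.49-fold with ADP-Hep, against 21.6-fold for Ch25h. Gpr34 was most like Acss1 (0.992), Depdc1b (0.992) and Abcg3 (0.989), all lower in WT cells with ADP-Hep.

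The genes nearest to Gpr65 were Atxn7l3b (0.986), the inhibitory receptor gene Lair1 (0.976) and Gm6548 (0.975), of which Lair1 changed by 0.41 in KO and 0.50 in WT cells. Nearest to Gpr35 were Cbx5 (0.967), the stress kinase gene Map3k5 (0.964) and Frmd6 (0.958), of which Frmd6 changed by 0.88 in KO and 0.12 in WT cells. Gpr183 had the loosest neighbours, Kitl (0.884), Icam2 (0.874) and Tlr13 (0.869). Among the 7 themselves, Gpr84 and Gpr132 had r = 0.976 and Gpr132 and Ch25h r = 0.963, while Gpr34 ran opposite to Gpr132 (r = -0.981). The limit given above for the correlations of Ch25h applies here too.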

How the data were processed

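RNA of 12 libraries was measured after a stranded mRNA library kit, per the labels' protocols. The authors deposited 1 table of raw, whole-number counts of reads by gene. The tools STAR, featureCounts, RSEM, Trim Galore, FastQC and DESeq2 and the builds mm10 and hg38 are listed without roles, per the submitters' processing notes. Versions, annotation and strand setting: not given in the sources used here. Columns were assigned by the names in the labels; 1 KO ADP-Hep column carried a number no label has and was kept in its group without a replicate number. The break in the table was placed where the summed difference between WT and KO mean log2 counts was smallest, and a further margin of 100 rows was left out. The rows used held 71.3 to 85.2% of each library's counts, and TMM scaling used them alone. All 37542 identifiers used are in GENCODE mouse release M21, the source of coordinates and lengths.

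Genes were kept by filterByExpr, and 1 quasi-likelihood model with robust estimation (R 4.3.3, edgeR 4.0.16) was fitted to the 4 group means of all 12 libraries, with 5 comparisons. The SE is the absolute log2 change divided by the square root of F, an approximation; approximate 95% intervals use 8 residual degrees of freedom. Counting intervals cover counting error only. The fit was tested on simulated counts. Replicates of a group differed by more than sampling noise (chi-square per degree of freedom 1.97 to 10.6). Alternatives were DESeq2 1.42.0 size factors and Wald test, library totals, limma-voom (limma 3.58.1), other filters, no robust estimation, glmTreat against 1.5-fold, a replicate block, only the groups compared, other rows, and each library left out. By the rule for named genes, related lists name up to 4 genes called in WT cells with the smallest p. The genes, lists and motifs were chosen with earlier results of these data known. Some genes of the lists are not reported here.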

Additional observations from a re-analysis of the deposited data

Results flagged for a closer look

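The response to ADP-Hep differed between genotypes, by the test of the difference itself (edgeR, WT response minus KO response on the log2 scale), for 6 of the 7 genes. Over all genes tested it differed upward for 24.6% and downward for 24.9%. The difference was 4.31 for Gpr84 (adjusted p = 3.5e-10), 2.84 for Gpr132 (adjusted p = 9.5e-15) and 5.80 for Ch25h (adjusted p = 1.7e-06), which is more upward in WT cells. The value of Ch25h rests on 7 counts with ADP-Hep and 14 with PBS in KO cells, in a gene that only the WT ADP-Hep group brought past the filter, and ran from 5.09 to 6.28 when single libraries were left out. The difference was -2.97 for Gpr34 (adjusted p = 6.9e-11), -0.74 for Gpr35 (adjusted p = 0.00589) and -0.65 for Gpr183 (adjusted p = 0.000181). Against a change of 1.5-fold neither the Gpr35 nor the Gpr183 difference was called. The Gpr183 difference includes one at rest (KO against WT under PBS, -0.47), and under ADP-Hep no genotype difference was called for it. For Gpr34 and Gpr183 the KO change was positive and not called and the WT change was a called fall. For Gpr35 the called rise was in KO cells.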

How the results depend on the processing

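The calls of Gpr65 and Gpr35 in KO cells, and of Gpr84, Ch25h, Gpr132, Gpr65 and Gpr34 in WT cells, kept their direction and stayed past the threshold in every alternative run. Their log2 changes ran from 0.95 to 1.14 for Gpr65 and 0.97 to 1.16 for Gpr35 in KO cells, and from 4.64 to 4.90 for Gpr84, 4.25 to 4.71 for Ch25h, 2.45 to 2.61 for Gpr132, 0.81 to 0.98 for Gpr65 and -3.13 to -2.43 for Gpr34 in WT cells. With no filter beyond 1 count, 4 genes rose in KO cells in place of 2, and with at least 1 CPM in 3 libraries 1 fell in place of 0; the cause was not tested. Against a change of 1.5-fold, which asks for more by construction, 1 gene was lower in WT cells, 1 had a more downward response in WT than in KO cells, and 0 were lower in KO than in WT cells under PBS. Leaving out each library in turn gave 0 to 1 genes lower and 2 to 3 higher in KO cells. Over the same sets the KO against WT change under PBS ran from -0.13 to 0.029 for Gpr34 and from -0.18 to 1.01 for Ch25h, turning sign without KO PBS replicate 3 and called in none. Scaling by library totals gave 2360 genes higher and 1483 lower in KO cells, where TMM gave 1678 and 1870; in WT cells it moved the median of all genes to -0.12, with 2990 higher and 4927 lower, against 3914 and 3871. The same scaling gave 2020 and 4507 for the difference between responses, against 3018 and 3053, and 5609 and 2722 for KO against WT under ADP-Hep, against 4016 and 3929. No pairing by replicate number was seen, though ranges compared without a test cannot exclude it. After removal of group means, 15 same-numbered pairs had r from -0.37 to 0.22. The 39 others, among them pairs with the library with no number, had r from -0.24 to 0.31. With the replicate block, and the library with no number left out, 2 genes rose in KO cells and 4 in WT cells, as without it. Ch25h counts outside the WT ADP-Hep group limit what can be said of it there. Of the counts over the lists of related genes, 57 moved by more than 1.5 times, or to or from 0, and 651 did not under the other settings. When a library was left out, 36 moved and 684 did not. The cell type marker lists were not part of these runs.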
